A study of Homo sapiens with 16 samples.

Results

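The YAP/TEAD genes described here are 10 chosen by symbol: the coactivators YAP1 and WWTR1 (the gene of TAZ), the DNA-binding partner TEAD1, the kinase LATS2, and the target genes CYR61, CTGF, ANKRD1, AMOTL2, AXL and DKK1. All 10 were found among the 34691 gene names of the deposited intensity table. The rule that chose them uses their names, not a measured value, although earlier results of these data were known when they were chosen. They were followed in MDA-MB-231, an established line of human breast cancer cells with mesenchymal traits, on 16 Illumina BeadChip arrays. The cells spent 48 h with 2.5 µM entinostat, 1 µM ATRA (all-trans retinoic acid) and 0.2 µM doxorubicin together, with entinostat and doxorubicin, with ATRA and doxorubicin, with doxorubicin, with entinostat and ATRA, with entinostat, with ATRA, or with the vehicle DMSO. Each of these 8 groups has 2 arrays. Doxorubicin, an anthracycline, traps topoisomerase II on DNA, ATRA is a ligand of the retinoic acid receptors, and entinostat blocks histone deacetylases of class I. The cells are 1 line, and replicates are numbered in the labels, which leave unsaid whether each was its own culture. The p-values therefore cover only the spread between these arrays, which may be technical.

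YAP and TAZ carry no DNA-binding domain and reach their target genes through TEAD factors. The Hippo kinases hold them back: STK3 and STK4, with the adaptor SAV1, activate LATS1 and LATS2, which phosphorylate YAP and TAZ and keep them in the cytoplasm. CYR61 and CTGF, which encode secreted matricellular proteins of the CCN family, are the usual readouts of this pathway, and AMOTL2 and LATS2 are targets that feed back on it. MDA-MB-231 cells carry a loss-of-function mutation of NF2, an upstream member of the pathway. Arrays measure RNA and give neither the phosphorylation nor the location of the YAP protein.

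The TEAD core GGAATG was looked up in the promoters of these genes, because the target genes did not move alike. RefSeq promoter windows of GRCh38.p14 (250 bases before to 50 after a start) were at hand for 8 of the 10 genes, 11 windows in all. CTGF was found under its current name CCN2. CYR61 and TEAD1 had no window, so the gene with the largest change was not looked up. GGAATG, read on both strands, was in 7 of these 11 windows, against 14.0% of all 35116 windows, and WWTR1 was the 1 matched gene with no copy. The CTGF window held 3 copies, and 45 windows of the whole table (0.128%) held 3 or more. These copies begin 169, 104 and 95 bases before the start. DKK1 had 1 copy, 50 bases before its start, and ANKRD1 had 2, at 220 and 128 bases. The AP-1 core TGANTCA, read the same way, was in 1 of the 11 windows, that of ANKRD1, against 7.7% of all windows, and there it began 195 bases before the start, clear of both GGAATG copies. The upstream 250 bases of CTGF and DKK1, which moved strongly, and of ANKRD1, which did not pass the test in any comparison, are given 5′ to 3′ with GGAATG in capitals. They lie at chr6:131951373-131951622 (minus strand), chr10:52314031-52314280 (plus strand) and chr10:90921088-90921337 (minus strand). A match in these letters is a description and not a site in use.
CTGF: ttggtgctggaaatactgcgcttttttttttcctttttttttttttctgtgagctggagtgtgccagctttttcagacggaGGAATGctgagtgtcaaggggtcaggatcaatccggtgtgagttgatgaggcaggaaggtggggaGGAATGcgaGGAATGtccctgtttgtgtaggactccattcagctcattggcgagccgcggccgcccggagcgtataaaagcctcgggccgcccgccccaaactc
DKK1: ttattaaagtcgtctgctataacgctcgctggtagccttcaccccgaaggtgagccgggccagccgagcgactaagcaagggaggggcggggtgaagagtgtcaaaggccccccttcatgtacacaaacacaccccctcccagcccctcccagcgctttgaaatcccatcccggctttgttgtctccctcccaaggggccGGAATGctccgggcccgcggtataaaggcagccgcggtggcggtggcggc
ANKRD1: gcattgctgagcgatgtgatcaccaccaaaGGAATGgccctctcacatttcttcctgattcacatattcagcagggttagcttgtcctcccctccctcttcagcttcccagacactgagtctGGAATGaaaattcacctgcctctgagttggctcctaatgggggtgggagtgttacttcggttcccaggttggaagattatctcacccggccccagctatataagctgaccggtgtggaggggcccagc

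The arrays separated the 10 genes by brightness. CYR61, CTGF, DKK1, AXL, ANKRD1 and YAP1 had a detection p-value below 0.05 on all 16 arrays, AMOTL2 on 13, LATS2 and WWTR1 on 12 each, and TEAD1 on 0. TEAD1 signals lay between -7.8 and 13.9, so this gene was not tested and nothing is said of its level. AMOTL2 (7.4 to 33.9), LATS2 (5.8 to 29.5) and WWTR1 (9.2 to 50.6) were near the background. There the added offset shrinks a fold, and its size depends on how the background is estimated. Between 11402 and 12748 named genes were detected per array, and Pearson's r between the replicates of a group, taken over genes, was 0.9807 to 0.9909 (genes are not independent). VIM (11816.6 to 18801.8) and CD44 marked the mesenchymal line on every array, ESR1 was detected on 0 arrays and CDH1 on 1, while EPCAM and KRT8 were detected on 16, ERBB3 on 9 and SPARC on 3. ERBB3, which was dim (6.4 to 101.7), was higher with entinostat (average log2 change 0.68, limma adjusted p = 3.68e-06) and with doxorubicin (0.39, adjusted p = 9.44e-05). KRT8 was higher with entinostat (0.33, adjusted p = 0.028) and not called with doxorubicin (-0.11, adjusted p = 0.434). EPCAM was called with neither entinostat (0.23, adjusted p = 0.11) nor doxorubicin (0.21, adjusted p = 0.117). VIM (-0.24, adjusted p = 0.00721) and CD44 (-0.28, adjusted p = 0.0153) were lower with doxorubicin, and the part of these changes in the results was not tested. Of 4 markers of other cell types, PTPRC and DCN were detected on 0 arrays and COL3A1 on 3. The endothelial gene PECAM1 was detected on 13 and was lower with doxorubicin (average log2 change -0.60, limma adjusted p = 0.000179). The summed signal of these 4 markers was 0.2 to 72.9 on the 8 arrays with doxorubicin and 36.4 to 100.9 on the 8 without it, and its part in the falls described here was not tested.

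Doxorubicin lowered 5 of the 9 tested genes and raised 0. CYR61 averaged 9.55 on the log2 scale over the 8 arrays with doxorubicin and 12.13 over the 8 without, a 5.99-fold fall (log2 change -2.58, SE 0.16, limma adjusted p = 3.12e-08). DKK1, which encodes a secreted antagonist of Wnt signalling, fell 3.34-fold (-1.74, SE 0.11, adjusted p = 4.08e-08). CTGF fell 2.23-fold (-1.16, SE 0.11, adjusted p = 1.79e-06). The falls of the coactivators were small, 1.21-fold for WWTR1 (-0.28, SE 0.07, adjusted p = 0.00555) and 1.18-fold for YAP1 (-0.24, SE 0.06, adjusted p = 0.0077). Doxorubicin moved many genes in these cells, and 19.8% of the 17126 tested genes were called higher and 21.3% lower at an adjusted p below 0.05. The median change over the 9 genes was -0.24, against 0.00 over all tested genes, which quantile normalization holds near 0. All 5 calls held under each setting of the processing that was tried and without any 1 of the 16 arrays. The size of the WWTR1 change followed the offset, at -0.44 with offset 16 and -0.03 with a background estimated through detection p-values. In such bulk samples fewer cells of a kind and less RNA per cell cannot be told apart.

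The CYR61 signal was 724.4 and 456.7 with all 3 drugs and 946 and 410.4 with entinostat and doxorubicin. It was 1118.4 and 701.4 with ATRA and doxorubicin and 821.1 and 525.2 with doxorubicin alone. Without doxorubicin it was 5626.8 and 6086.6 with entinostat and ATRA, 8492.4 and 6078.7 with entinostat, 2931.4 and 3159 with ATRA, and 2644.4 and 3167.7 in DMSO. Every array with doxorubicin was thus below every array without it, and among the arrays without doxorubicin all 4 with entinostat were above the other 4. The 4 doxorubicin groups overlapped one another, as did ATRA with DMSO and entinostat with entinostat plus ATRA. Against DMSO, CYR61 fell in all 4 groups with doxorubicin, 4.60-fold with the 3 drugs (-2.20, SE 0.31, adjusted p = 0.000155), 4.26-fold with entinostat and doxorubicin (adjusted p = 0.000214), 3.12-fold with ATRA and doxorubicin (adjusted p = 0.0033) and 4.08-fold with doxorubicin alone (adjusted p = 0.00111). Without ATRA plus doxorubicin replicate 2 the adjusted p of that pair was 0.0502.

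The DKK1 signal was 389.7 and 430.3 with all 3 drugs and 573.5 and 328.9 with entinostat and doxorubicin. It was 914.6 and 779.5 with ATRA and doxorubicin and 684.8 and 641.8 with doxorubicin alone. Without doxorubicin it was 2746.2 and 1989.1 with entinostat and ATRA, 3568 and 2324.9 with entinostat, 1691.9 and 1668.4 with ATRA, and 1555.8 and 1588.1 in DMSO. The arrays formed 4 sets that did not overlap, in ascending order both entinostat and doxorubicin, doxorubicin without entinostat, neither drug, and entinostat without doxorubicin. Against DMSO, DKK1 fell 3.42-fold with the 3 drugs (-1.77, SE 0.22, adjusted p = 5.63e-05), 3.24-fold with entinostat and doxorubicin (adjusted p = 7.37e-05), 1.80-fold with ATRA and doxorubicin (adjusted p = 0.0196) and 2.23-fold with doxorubicin alone (adjusted p = 0.00372). The call with ATRA and doxorubicin was lost without any 1 of its 4 arrays (adjusted p of 0.0516 to 0.139).

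The CTGF signal was 2244.6 and 2880 with all 3 drugs and 3533.8 and 2308.9 with entinostat and doxorubicin. It was 2409 and 2306.6 with ATRA and doxorubicin and 1240.8 and 2068 with doxorubicin alone. Without doxorubicin it was 6600.2 and 6687.1 with entinostat and ATRA, 9427.8 and 8028.1 with entinostat, 2921.7 and 3157.9 with ATRA, and 3726.7 and 4579.8 in DMSO. The 4 arrays with entinostat and no doxorubicin were the highest, the DMSO arrays came next, and the ATRA arrays fell within the range of entinostat plus doxorubicin. Against DMSO, CTGF fell 2.53-fold with doxorubicin alone (-1.34, SE 0.23, adjusted p = 0.00192). It fell 1.62-fold with the 3 drugs (adjusted p = 0.0352) and 1.72-fold with ATRA and doxorubicin (adjusted p = 0.0325). With entinostat and doxorubicin the log2 change was -0.52 (95% interval -1.01 to -0.03) and was not called (adjusted p = 0.108). The calls for the 3 drugs and for ATRA with doxorubicin were fragile. With offset 16 their adjusted p was 0.0518 and 0.0506. Leaving out DMSO replicate 1, DMSO replicate 2 or replicate 1 of the 3 drugs gave 0.0601, 0.206 and 0.236 for the 3 drugs, and leaving out any of 4 arrays gave 0.0754 to 0.198 for the pair. The call absent with entinostat and doxorubicin appeared without its replicate 1 (adjusted p = 0.0297).

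**Figure D1:**
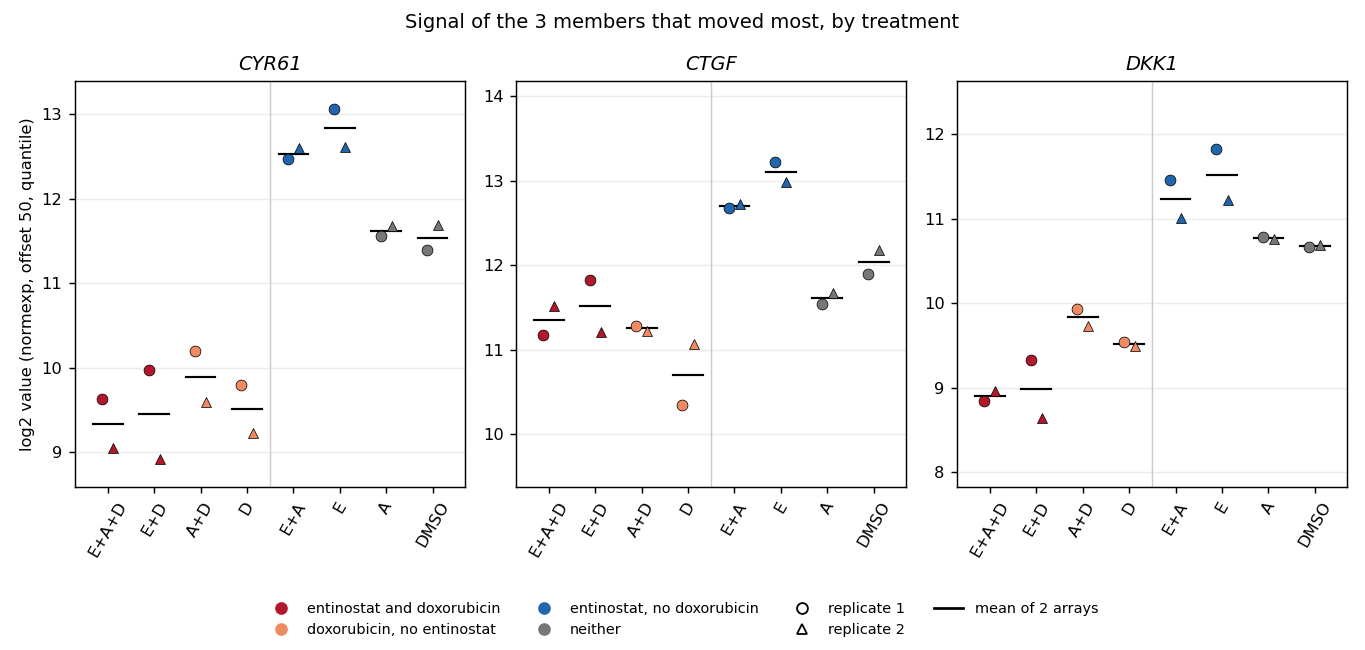
Log2 values (normexp, offset 50, quantile) of CYR61, CTGF and DKK1 on each of the 16 arrays, grouped along the x axis by treatment, where E is entinostat, A is ATRA and D is doxorubicin (circles and triangles, replicates 1 and 2; line, mean of 2 arrays). All CYR61 and DKK1 points left of the divider (with doxorubicin) lie below all points right of it, and the blue points (entinostat without doxorubicin) are the highest in each panel.

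Per comparison with DMSO, 0 of the 9 tested genes rose and 4 fell with the 3 drugs (against 13% higher and 14.8% lower among all tested genes), 0 and 4 with entinostat and doxorubicin (13.2% and 14.8%), 0 and 4 with ATRA and doxorubicin (7.4% and 7.57%), and 0 and 3 with doxorubicin alone (6.48% and 7.12%). With entinostat and ATRA 0 rose and 1, YAP1, fell (1.78% and 0.677%), and with entinostat alone 1, CTGF, rose and 0 fell (1.32% and 0.257%). With ATRA alone 0 rose and 0 fell (0.0234% and 0%), and the change nearest to a call in limma was that of CTGF (-0.43, unadjusted p = 0.0775). In the ATRA average over 8 arrays with and 8 without it, 0 rose and 0 fell too (0.105% and 0.00584%), the lowest unadjusted p being 0.0705 for YAP1 (-0.13). These 7 comparisons share the 2 DMSO arrays, so they are not independent of each other. The ATRA and doxorubicin count was 0 without ATRA plus doxorubicin replicate 2, 1 without any other of its 4 arrays, and 2 with a background estimated through detection p-values.

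Entinostat raised 1 of the 9 tested genes, CTGF, and lowered 1, YAP1. CTGF averaged 12.17 on the log2 scale over the 8 arrays with entinostat and 11.40 over the 8 without, a 1.70-fold rise (0.77, SE 0.11, adjusted p = 0.000281). YAP1 averaged 8.72 with entinostat and 9.15 without, a 1.34-fold fall (-0.43, SE 0.06, adjusted p = 0.0003). Over all tested genes, 11% were called higher and 12.3% lower with entinostat, so counts of 1 and 1 among 9 genes are near these shares. Both calls held under each setting tried and without any 1 of the 16 arrays. CYR61 had a positive average of 0.40 (SE 0.16) that was not called (adjusted p = 0.0858), and without entinostat plus doxorubicin replicate 2 it was called (0.53, adjusted p = 0.0114). The CYR61 average was also called with the replicate number as a block in the fit (adjusted p = 0.0279). DKK1 averaged -0.04 (95% interval -0.28 to 0.20).

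Given alone, entinostat raised CTGF 2.09-fold over DMSO (log2 change 1.06, SE 0.23, adjusted p = 0.0338). Changes of CYR61 (1.30, 95% interval 0.62 to 1.97, adjusted p = 0.0591) and DKK1 (0.85, 0.37 to 1.32, adjusted p = 0.0833) were not called. Both were called with the replicate number as a block in the fit (adjusted p = 0.00988 and 0.0191). What that number marks is not stated in the labels. The CTGF call was lost without any 1 of its 4 arrays (adjusted p of 0.0778 to 0.331) and with offset 16 (adjusted p = 0.0543), and DKK1 was called without entinostat replicate 2 (adjusted p = 0.0451). With entinostat and ATRA the log2 changes against DMSO were 0.66 for CTGF, 0.99 for CYR61 and 0.55 for DKK1, none of them called (adjusted p = 0.163, 0.126 and 0.242). Of these, CYR61 was called with the replicate number as a block (adjusted p = 0.0355).

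**Figure D2:**
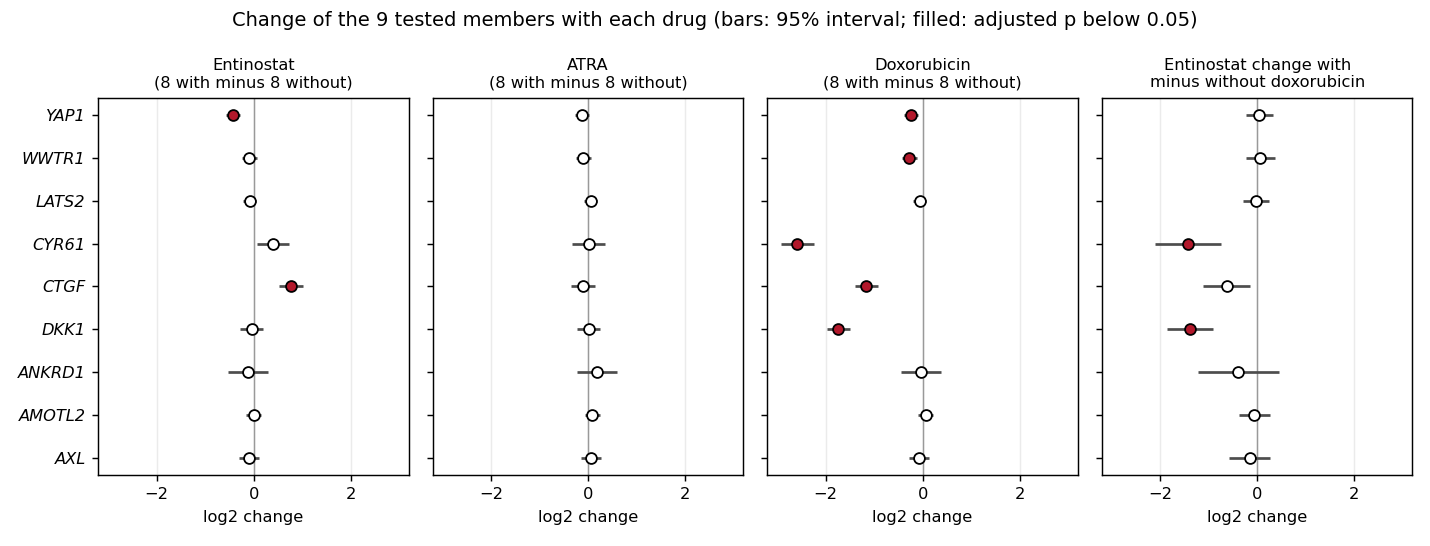
Log2 changes of the 9 tested genes on the x axes, as the average over 8 arrays with each drug minus 8 without it and, at the right, as the entinostat change with minus without doxorubicin (bars, 95% intervals; filled, adjusted p below 0.05). Filled points are 2 for entinostat, 0 for ATRA, 5 for doxorubicin and 2 for the difference between the entinostat changes.

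The entinostat change depended on doxorubicin for CYR61 and DKK1. Averaged over ATRA, DKK1 was 1.66-fold lower with entinostat among the arrays with doxorubicin (8.94 against 9.68 on the log2 scale, 4 arrays each) and 1.57-fold higher among the arrays without it (11.38 against 10.73). The difference between these changes was -1.39 (SE 0.22, adjusted p = 0.00611) and held under each setting tried and without any 1 array. CYR61 had an entinostat change of -0.31 (SE 0.22) with doxorubicin and 1.11 (SE 0.22) without, and these differed by -1.42 (SE 0.31, adjusted p = 0.0344). For CYR61 the call was lost without 10 of the 16 arrays in turn, with adjusted p up to 0.0987, and the adjusted p was 0.146 with a background estimated through detection p-values. CTGF moved the same way on both backgrounds, by 0.45 (SE 0.16) with doxorubicin and 1.08 (SE 0.16) without. Its difference of -0.63 (95% interval -1.12 to -0.14) was not called (adjusted p = 0.206). Of the 9 tested genes, 0 had a difference called above 0 and 2 below 0, against 1.13% and 0.73% of all tested genes.

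**Figure D3:**
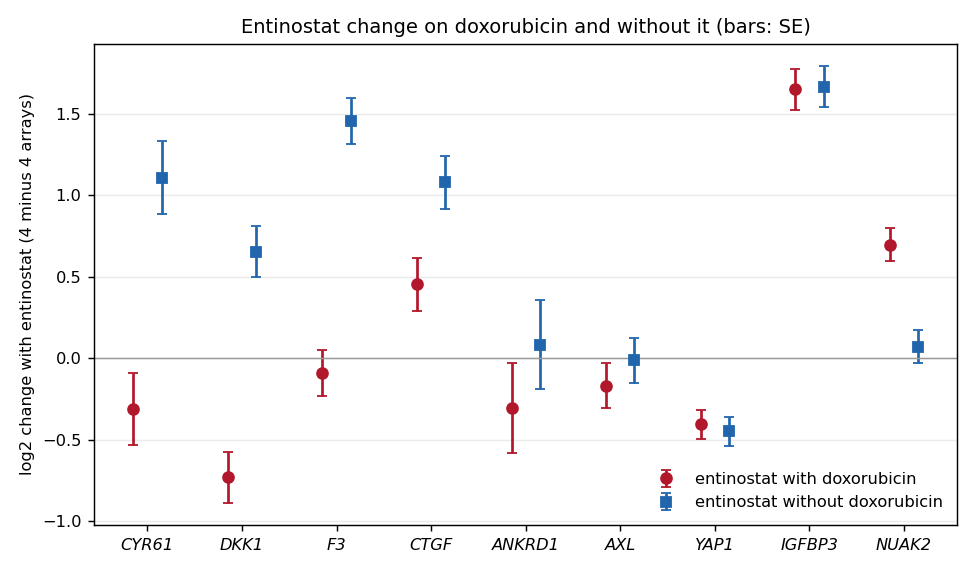
Log2 change with entinostat (mean of 4 arrays with it minus mean of 4 without it, bars are SE) on the y axis, among arrays with doxorubicin (circles) and among arrays without doxorubicin (squares). CYR61, DKK1, F3 and ANKRD1 are above 0 only for the squares. CTGF, IGFBP3 and NUAK2 are above 0 for both, and YAP1 and AXL are below 0 for both. NUAK2 is higher for the circle, and the squares of ANKRD1, AXL and NUAK2 lie within their SE of 0.

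The YAP1 signal was 304.6 and 313.1 with all 3 drugs and 350.5 and 323.8 with entinostat and doxorubicin. It was 504.1 and 432.8 with ATRA and doxorubicin and 450.2 and 416.6 with doxorubicin alone. Without doxorubicin it was 314.4 and 330 with entinostat and ATRA, 472.1 and 448.1 with entinostat, 570.6 and 508.9 with ATRA, and 641.7 and 501.6 in DMSO. The 6 arrays on which entinostat was joined by a second drug, ATRA, doxorubicin or both, were the lowest and did not overlap any other array. Against DMSO, YAP1 fell 1.68-fold with the 3 drugs (-0.75, SE 0.13, adjusted p = 0.000557), 1.57-fold with entinostat and doxorubicin (adjusted p = 0.00158) and 1.62-fold with entinostat and ATRA (adjusted p = 0.0102). The last of these had an adjusted p of 0.138 without DMSO replicate 1 and 0.107 without entinostat plus ATRA replicate 1. With entinostat alone the log2 change was -0.27 (95% interval -0.55 to 0.00) and was not called (adjusted p = 0.407), and whether the pair with ATRA differed from entinostat alone was not tested. The entinostat change of YAP1 was -0.41 with doxorubicin and -0.45 without, a difference of 0.04 (95% interval -0.23 to 0.32, adjusted p = 0.925).

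WWTR1 was dim. Its signal was 26.8 and 9.2 with all 3 drugs, 11.1 and 18.7 with entinostat and doxorubicin, 13.8 and 9.9 with ATRA and doxorubicin, and 31.5 and 22.8 with doxorubicin alone. It was 25.2 and 30.7 with entinostat and ATRA, 34.2 and 36.4 with entinostat, 50.6 and 24.1 with ATRA, and 49.7 and 38.1 in DMSO. The DMSO arrays were above every array with doxorubicin. The signal was not above background on either array of ATRA plus doxorubicin. The measured fall of WWTR1 from DMSO there was 1.4-fold with offset 50 (adjusted p = 0.0336). The bound on this fall was the same 1.4-fold, so it adds nothing to the measured value. With a background estimated through detection p-values this log2 change was -0.05 and was not called (adjusted p = 0.0589). WWTR1 fell 1.36-fold with entinostat and doxorubicin (adjusted p = 0.0327), while the 3-drug change of -0.40 was not called (adjusted p = 0.0526). That change was called with offset 16 (-0.62, adjusted p = 0.043) and without replicate 1 of the 3 drugs (-0.54, adjusted p = 0.0397). The calls for the 2 pairs were lost without any 1 of the 4 arrays of the comparison, with adjusted p up to 0.197 and 0.181.

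The other 4 tested genes, ANKRD1, AMOTL2, AXL and LATS2, were not called in any of the 11 comparisons. Their lowest adjusted p-values over these were 0.728 for ANKRD1, 0.347 for AMOTL2, 0.573 for AXL and 0.401 for LATS2. AXL, a receptor tyrosine kinase, was bright and steady, with signals of 2124.5 to 3475.7 (median 2730.8) and an average doxorubicin change of -0.08 (95% interval -0.29 to 0.13). ANKRD1, an ankyrin-repeat cofactor, was also well above background but varied between replicates, with 557.4 and 153.3 with entinostat and 536.5 and 236.3 with ATRA, against 316.5 and 460 in DMSO. Its average doxorubicin change was -0.03 with an interval of -0.44 to 0.39, so a change the size of that of CTGF or CYR61 lies outside this interval. AMOTL2, a scaffold that binds YAP, changed on average by 0.06 (-0.10 to 0.22) with doxorubicin, and LATS2 by -0.06 (-0.19 to 0.08). Both were close to background.

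**Figure D4:**
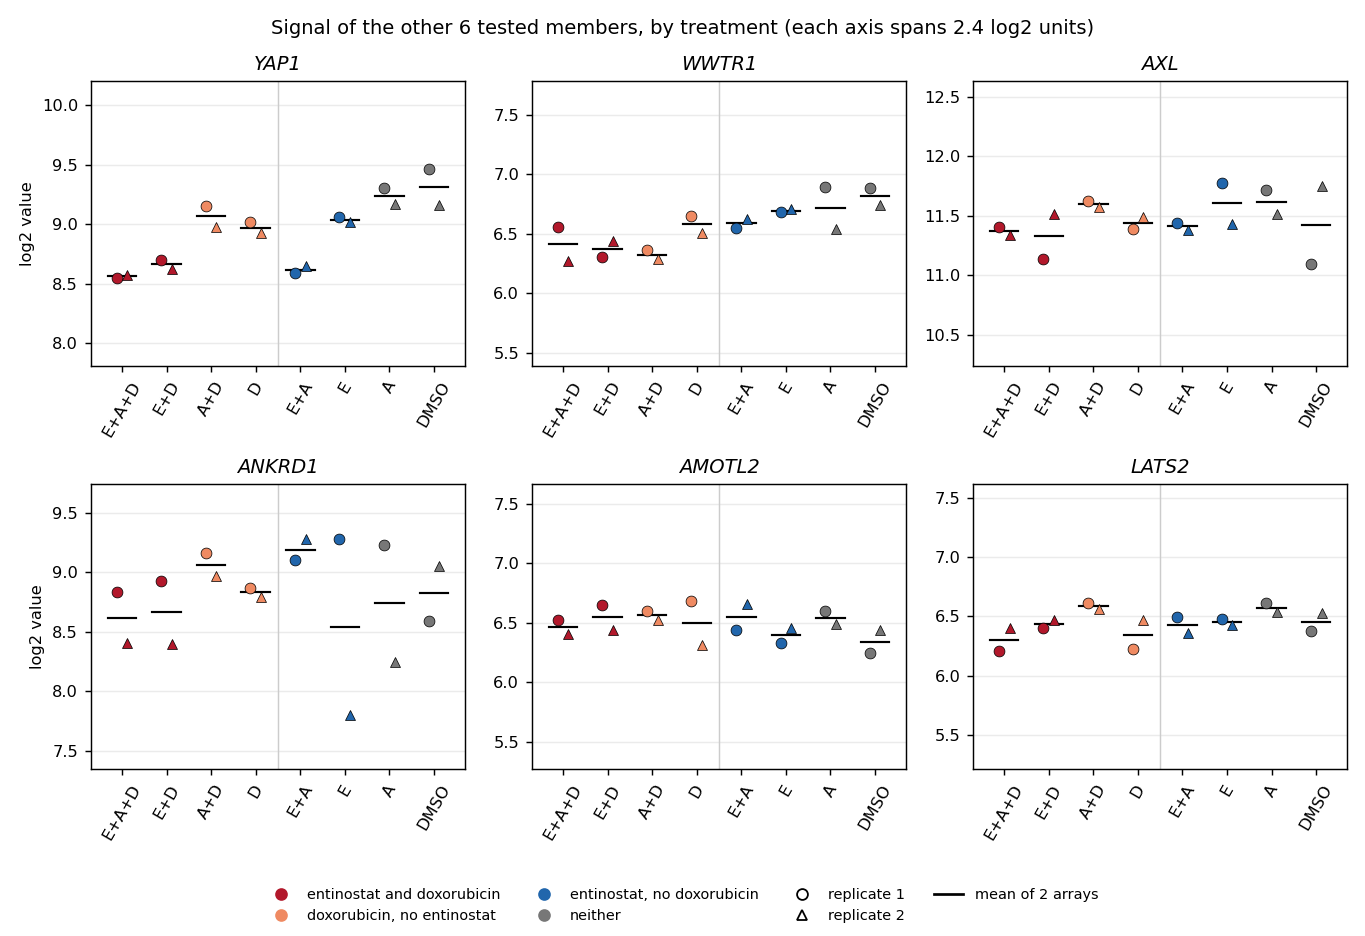
Log2 values of YAP1, WWTR1, AXL, ANKRD1, AMOTL2 and LATS2 on each of the 16 arrays by treatment, with E for entinostat, A for ATRA and D for doxorubicin (circles and triangles, replicates 1 and 2; line, mean of 2 arrays). YAP1 is lowest in the 3 groups that join entinostat with another drug, and ANKRD1 has the widest gap between replicates, with entinostat alone.

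Across the 16 arrays CYR61 and DKK1 ran most closely together (Pearson r = 0.966), followed by CYR61 with CTGF (0.854) and CTGF with DKK1 (0.794). CTGF and YAP1 had r = -0.0047, and CYR61 and ANKRD1 0.16. These are descriptions over arrays that share the same 8 treatments and carry no p-value. Among all other tested genes, those most like CYR61 were LYPLAL1 (r = 0.979) and PPP2R2A (0.973), those most like DKK1 were NEDD4L (0.980) and LYPLAL1 (0.967), and those most like CTGF were UGCG (0.932) and TNS1 (0.918). YAP1 was followed most closely by E2F5 (0.931) and CXORF26 (0.929), and WWTR1 by PNN (0.897) and COPS5 (0.895). For AXL, ANKRD1, AMOTL2 and LATS2 the highest values were 0.803 (ST3GAL1), 0.780 (ZNF322B), 0.810 (SNORD42B) and 0.808 (LOC645937), and the next ones were 0.743 (FLJ40473), 0.737 (LOC100133673), 0.803 (RIPK1) and 0.767 (LOC645118).

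Of 22 further Hippo pathway genes, 17 were tested, and the average doxorubicin change was higher in 4 and lower in 7 of them (19.8% and 21.3% of all tested genes). FRMD6, a FERM-domain activator of the pathway, fell 1.62-fold (-0.70, SE 0.07, adjusted p = 1.79e-06) and RASSF1, a scaffold that binds STK3 and STK4, fell 1.37-fold (-0.45, adjusted p = 0.000795). TEAD3, a paralogue of TEAD1, rose 1.62-fold (0.70, SE 0.14, adjusted p = 0.00113), with signals of 57.8 and 246 on the arrays of doxorubicin alone. MOBKL1B, the LATS cofactor MOB1A, rose 1.38-fold (0.46, adjusted p = 0.00167). The others were AMOT and TEAD2, which rose, and STK3, WWC1, TEAD4, VGLL4 and JUB, which fell. The list's median change was -0.12. With entinostat, against shares of 11% higher and 12.3% lower over all tested genes, 2 of 17 rose on average, WWC1 (0.30, adjusted p = 0.00993) and AMOT (0.29, adjusted p = 0.00946), and 1 fell, RASSF1 (-0.38, adjusted p = 0.00646). AMOT was dim, with signals of 6.9 to 77.5. With a background estimated through detection p-values the AMOT and RASSF1 changes shrank to 0.04 and -0.07, while their calls held. With the 3 drugs against DMSO, 2 rose and 4 fell (13% and 14.8% of all tested genes), among them FRMD6 (-1.16, adjusted p = 3.65e-05), STK3 (-0.81, adjusted p = 0.00193), RASSF1 (-0.80, adjusted p = 0.00378) and TEAD3 (0.90, adjusted p = 0.0303). TEAD3 lost this call without any 1 of the 4 arrays and with a background estimated through detection p-values (adjusted p = 0.197). NF2, LATS1, AMOTL1, VGLL3 and TAOK3 were detected on 0 arrays and were not tested. TAOK3 signals were nevertheless 20.4 to 85.6, so nothing is said of its level.

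Among 16 other genes known as YAP targets, 15 were tested, and with doxorubicin 2 rose and 6 fell on average (19.8% and 21.3% of all tested genes), with a median change of -0.18. ASAP1, an Arf GTPase-activating protein, fell 2.02-fold (-1.02, SE 0.09, adjusted p = 5.21e-07), FJX1 1.54-fold (-0.62, adjusted p = 0.000993) and FOXF2, a forkhead factor, 1.46-fold (-0.54, adjusted p = 0.000105). NUAK2, a kinase of the AMPK family, rose by a log2 change of 0.58 (adjusted p = 1.53e-05). Of the rest, ARHGEF17 rose and IGFBP3, NT5E and DOCK5 fell. The sizes for the dim genes FOXF2 and NUAK2 shrank to -0.05 and 0.07 with a background estimated through detection p-values, as those of RASSF1 (-0.08) and TEAD3 (0.16) did, while their calls held. The members of this list did not follow CYR61 and CTGF as a block, and 7 of the 15 were not called. With the 3 drugs against DMSO, 3 rose and 5 fell (13% and 14.8% of all tested genes). These were ASAP1 (-1.08, adjusted p = 0.000383), IGFBP3 (0.99, adjusted p = 0.000915), NUAK2 (0.88, adjusted p = 0.000464), ARHGEF17 (0.71, adjusted p = 0.0154), FJX1, FOXF2, NT5E and DOCK5. ARHGEF17 lost this call without DMSO replicate 1, DMSO replicate 2 or replicate 1 of the 3 drugs (adjusted p = 0.0885, 0.0537 and 0.191), and IGFBP3 with a background estimated through detection p-values (adjusted p = 0.059).

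With entinostat 4 of these 15 targets rose on average and 1, DOCK5, fell (11% and 12.3% of all tested genes). IGFBP3, which binds insulin-like growth factors, rose 3.16-fold (1.66, SE 0.09, adjusted p = 3.51e-08). F3, the tissue factor that starts coagulation, rose 1.60-fold (0.68, SE 0.10, adjusted p = 0.000239), GADD45A, a stress-response gene, 1.51-fold (0.59, adjusted p = 0.0163) and NUAK2 1.31-fold (0.38, adjusted p = 0.0017). With a background estimated through detection p-values the adjusted p of GADD45A was 0.0941, and the NUAK2 change shrank to 0.05 while its call held. Of these 15 targets, 1 (NUAK2) had a difference between the entinostat changes with and without doxorubicin called above 0, and 1 (F3) below 0. The shares of all tested genes were 1.13% and 0.73%. NUAK2 (0.63) lost this call without 13 of the 16 arrays in turn. The entinostat change of F3 was -0.09 (SE 0.14) with doxorubicin and 1.46 (SE 0.14) without, and these differed by -1.55 (SE 0.20, adjusted p = 0.00131). The F3 signal was 580.9 and 784.9 with the 3 drugs, 849.7 and 567.6 with entinostat and doxorubicin, 880 and 772.9 with ATRA and doxorubicin and 651 and 658.9 with doxorubicin. It was 1721.3 and 1161.3 with entinostat and ATRA, 1484.2 and 1447.3 with entinostat and 476 and 491.7 with ATRA, against 450.7 and 510.8 in DMSO. Unlike for CYR61 and DKK1, all arrays with doxorubicin were above the DMSO arrays. F3 rose with ATRA and doxorubicin (0.71, adjusted p = 0.0277), while its change with doxorubicin alone was 0.41 (adjusted p = 0.208). The call with ATRA and doxorubicin was lost without any 1 of its 4 arrays (adjusted p of 0.0719 to 0.167) and with a background estimated through detection p-values (adjusted p = 0.0986). For IGFBP3 the entinostat changes were 1.65 with doxorubicin and 1.67 without. The F3 promoter window held 0 copies of GGAATG and 2 of TGANTCA. Of all windows, 14.0% held GGAATG and 7.7% TGANTCA, and 0.52% held 2 or more copies of TGANTCA. No other gene of these lists was looked up, and a link to the F3 changes was not tested.

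**Figure D5:**
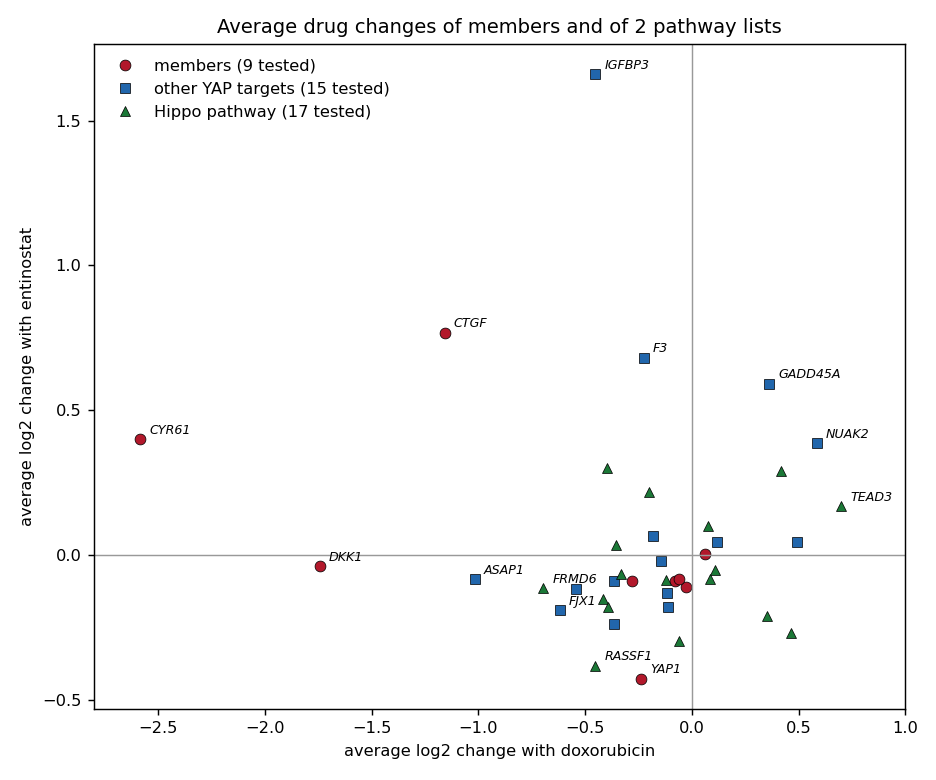
Average log2 change with doxorubicin (x axis) against average log2 change with entinostat (y axis) for the 9 tested YAP/TEAD genes (circles), 15 other YAP targets (squares) and 17 Hippo pathway genes (triangles). CYR61, DKK1 and CTGF lie farthest to the left, IGFBP3 is the highest point, and most other genes lie within 1 log2 unit of the origin on both axes.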

How the data were processed

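RNA of 16 arrays (8 groups of 2, named in the labels) was measured on Illumina BeadChips. The authors deposited 1 table of intensity values with a detection p-value per gene and array, and 1 table of log2 values. The intensity values ran from -26 to 22098.4 with 27.5% to 28.2% below 0 on each array, so the authors' values came background-subtracted. The step from probes to genes is not given in the sources. The submitters' processing notes list limma, with no version. Spike-in controls (92) and unnamed sequence clusters (3270) were left out, and genes with a detection p-value below 0.05 on at least 2 arrays were kept (17126). With limma 3.58.1 (R 4.3.3), normexp correction with an offset of 50 was followed by quantile normalization and a log2 transform. A group-means fit over all 16 arrays (lmFit, eBayes, 8 residual degrees of freedom) gave 11 comparisons, each with Benjamini-Hochberg adjustment over all tested genes. Each SE is that of limma, and intervals are 95%. Precision is limited by the number of arrays, and folds refer to values with the offset added. For a gene not detected in a group, the bound sets the DMSO mean against the larger, on each array, of its own value and the dimmest detected gene. The fit was tested on simulated data.

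The members and lists were chosen with earlier results of these data known. Named genes are the 10 members, up to 4 called genes of each list with the largest change in the entinostat and doxorubicin averages and in the 3-drug comparison, and the 2 genes most correlated with each tested member. Genes of counts of 5 or fewer were also named, and so were the other list members called with doxorubicin or the 3 drugs, and F3 in further groups, chosen after their values were seen. The file's older names were used (MOBKL1B, JUB). MYOF is in the file a second time as FER1L3, which was not counted. Alternatives were normexp with a background estimated through detection p-values (offset 16), offset 16, the authors' own log2 values (17105 names matched), no detection filter, a replicate block, and each array left out. The alternatives' effect is given at the end.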

Additional observations from a re-analysis of the deposited data

Results flagged for a closer look

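The change with entinostat differed between arrays with and without doxorubicin for 4 of the genes named, as tested by the interaction term in limma. Of the 9 tested members 0 were called above 0 and 2 below 0. The counts were 1 and 1 of the 15 other YAP targets, and 0 and 0 of the 17 Hippo pathway genes. Over all tested genes the shares were 1.13% and 0.73%. The differences (log2, with minus without doxorubicin) were -1.39 for DKK1 (adjusted p = 0.00611), -1.42 for CYR61 (adjusted p = 0.0344), -1.55 for F3 (adjusted p = 0.00131) and 0.63 for NUAK2 (adjusted p = 0.0434). The CYR61 call was lost without 10 of the 16 arrays in turn (adjusted p up to 0.0987) and with offset 16. It was also lost with a background estimated through detection p-values (adjusted p = 0.146). For NUAK2 the entinostat change was 0.70 with doxorubicin and 0.07 without. Its call was lost without 13 of the 16 arrays in turn (adjusted p up to 0.115) and with offset 16 (adjusted p = 0.0799), its size was 0.10 with a background estimated through detection p-values, and its signals without doxorubicin, 2 to 18.5, were near background. The causes were not tested.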

How the results depend on the processing

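Of 275 log2 changes of CYR61, CTGF, DKK1, YAP1 and WWTR1 recomputed under 5 alternatives, 258 kept their direction and their side of the threshold, 10 lost a call, 6 gained one and 1 changed sign. The sign change was DKK1 in the entinostat average, 0.022 with a background estimated through detection p-values. With that setting the number of the 9 tested genes called was 0 for entinostat, 2 for ATRA with doxorubicin and 1 for the interaction, and with offset 16 it was 0 for entinostat and 1 for the interaction. With the replicate block it was 3 for entinostat and 2 for entinostat with ATRA. The calls gained with the block were CYR61 (adjusted p = 0.00988) and DKK1 (0.0191) for entinostat, CYR61 for entinostat with ATRA (0.0355) and in the entinostat average (0.0279), and WWTR1 for the 3 drugs (0.0352). Same-numbered arrays correlated in their deviations from the group means at 0.0194 to 0.424, over 0.1 in 26 of 28 pairs of groups. With 2 arrays per group these positive values fix in advance that 16 of 16 arrays correlate best with their own number. The labels do not say what the number marks, so what these arrays share is not known, and the main fit left the number out. Leaving out 1 array gave 0 to 1 called for entinostat, for entinostat with ATRA and for ATRA with doxorubicin, and 1 to 2 for the interaction. Small changes that were not called changed sign when an array was left out. Against DMSO with ATRA these ran from -0.0696 to 0.2191 for CYR61, -0.2249 to 0.0820 for YAP1 and -0.2774 to 0.0830 for WWTR1. In the ATRA average they ran from -0.1216 to 0.1436 for CYR61 and -0.0768 to 0.0946 for DKK1. In the entinostat average DKK1 ran from -0.1249 to 0.0465, and in the interaction YAP1 ran from -0.0346 to 0.1189 and WWTR1 from -0.0210 to 0.1592. Over all tested genes, calls for entinostat were 129 (87 higher) with a background estimated through detection p-values and 546 with the replicate block, against 270 (226 higher), and for entinostat with ATRA 274 (140 higher) and 800, against 421 (305 higher). For ATRA they were 0 with that background, against 4, and they were 1 (offset 16), 2 (the authors' log2 values) and 10 (replicate block). The ATRA average had 2 and 32, against 19, and the interaction 684 with the block, against 318. The causes were not tested. Signal near background limits WWTR1, AMOTL2, LATS2 and TEAD1.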
